A study of Mus musculus with 12 samples.

Results

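The cytosolic ribosome of mammalian cells is built from ribosomal RNAs and a set of ribosomal proteins, each present in about equal numbers and most encoded by a single intron-containing gene. The small (40S) subunit decodes mRNA and the large (60S) subunit joins amino acids. The mRNAs of ribosomal proteins typically begin with a C followed by a run of pyrimidines, the 5' terminal oligopyrimidine (TOP) motif, through which their translation is coupled to mTORC1 signalling, and their supply is tied to growth and division in dividing progenitor cells. Members were chosen by symbol alone (Rpl or Rps followed by digits and at most one letter a, x or y, together with Rpsa, Rplp0, Rplp1 and Rplp2). This gave 76 genes of the 42802 features in the day 9 table, the same 76 in the day 5 table, made up of 30 members of the 40S subunit and 46 of the 60S subunit.

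The study removed lamin B1, a protein of the nuclear lamina, from mouse neural progenitor cells. The cKO groups were LaminB1 fl/fl; Ai3 cells and the WT groups LaminB1+/+; Ai3 cells, all of strain C57BL/6, grown with EGF and FGF-2. Every group, the WT ones included, had received the lentivirus pSox2-Cre, so Cre was driven by Sox2 sequences in both genotypes. Ai3 is a Cre-dependent EYFP reporter, and the cells profiled were those sorted as EYFP-positive after 5 or 9 days. Each of the 4 groups (cKO and WT at day 5, cKO and WT at day 9) had 3 libraries of polyA RNA. The labels do not say whether replicates were separate cultures, so a p-value here covers the variation among libraries of a group, part of which could be technical. In bulk RNA, fewer cells of a type and less RNA per cell cannot be told apart. Levels are given in CPM, a library's counts scaled to a common total with TMM within a day, and log2 fold changes are cKO over WT.

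Ribosomal protein genes have many processed copies in the mouse genome, and the counts have to be read with this in view. Copies were counted as near-identical at 95% identity or more over at least 80% of the coding sequence, with a transcript at most 2 times as long. By this rule 65 of the 76 members had at least 1 copy in the day 9 table, and for 23 members more than 50% of the counts of the gene and its copies lay on the copies. Rps12, a 40S protein gene, was listed at 0 in all 12 libraries and had all of its family's counts on copies. The share on copies at day 9 was 95.6% for Rpl12, 93.6% for Rpl10, 93.5% for Rps7, 92.7% for Rpl5 and 89.4% for Rpl27.

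The following sequences are shown because the coding letters of a member and its copies are the same or nearly so. Each is the last 60 coding bases, 5' to 3', before the stop codon, from GENCODE M21 (mm10), and a capital marks a base that differs from the parent gene. Rpl12 lies at chr2:32961559-32965345 (+ strand) and its copy Gm10275 at chr10:29698746-29699380 (- strand). Over all 495 coding bases Gm10275 has 0 differences. Rpl5 lies at chr5:107900502-107909005 (+ strand), Gm15500 at chr7:114705217-114706235 (- strand) and Rpl5-ps1 at chr1:14865072-14865965 (+ strand). Over the 891 coding bases of Rpl5, Gm15500 has 0 differences and Rpl5-ps1 has 10.
Rpl12: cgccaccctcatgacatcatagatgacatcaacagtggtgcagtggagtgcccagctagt
Gm10275: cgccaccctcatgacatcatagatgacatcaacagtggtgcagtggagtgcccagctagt
Rpl5: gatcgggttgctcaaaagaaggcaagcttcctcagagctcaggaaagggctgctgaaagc
Gm15500: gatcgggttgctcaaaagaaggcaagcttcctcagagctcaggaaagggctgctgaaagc
Rpl5-ps1: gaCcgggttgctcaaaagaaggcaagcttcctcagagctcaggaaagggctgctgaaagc

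Promoters were looked at because members moved together across libraries. RefSeq start windows (GRCm38.p6) were given for 56 of the 76 members, with 66 starts among them. A TOP-like start was taken as a C followed by at least 4 of C or T, with that C within 5 bases of the annotated start on the gene's strand. Of the 66 member starts, 29 held it (43.9%), against 18.3% of all 32851 starts. In the 300 base windows the letters CCGGAAG, on either strand, stood in 36.4% of member starts and 8.86% of all starts. AAGATGGC stood in 10.6% and 2.75%, CACGTG in 12.1% and 7.15%, and TATAAA in 9.09% and 13.6%. These are matches of letters and not sites of binding. The windows below run from 40 bases before to 15 bases after the annotated start, and capitals mark the pyrimidines from the matched C onward, although in Rpl28, Rplp2 and Rpl27a further pyrimidines stand just before it. They are at chr17:24720023-24720077 (+ strand), chr7:4792925-4792979 (+ strand), chr7:141447611-141447665 (+ strand) and chr7:109519155-109519209 (+ strand), in the order printed. Rpl28 and Rpl27a were chosen after their values were seen.
Rps2: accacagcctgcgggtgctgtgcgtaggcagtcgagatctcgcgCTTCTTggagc
Rpl28: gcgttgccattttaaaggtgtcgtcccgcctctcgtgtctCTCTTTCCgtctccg
Rplp2: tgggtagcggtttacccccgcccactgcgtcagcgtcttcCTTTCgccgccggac
Rpl27a: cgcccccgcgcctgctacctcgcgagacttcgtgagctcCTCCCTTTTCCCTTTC
With copies added, the 27 members with a TOP-like start had a median day 9 log2 fold change of -0.49 and the 29 without one -0.46.

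Libraries of one genotype differed from each other. Total counts were between 13315273 and 22988447 in the day 9 cKO libraries, between 24412935 and 24662809 in the day 9 WT libraries, and between 26720476 and 32127629 at day 5. Features of structural RNA (ribosomal RNA, 7SK and similar, 21 listed in each table) held 69.8%, 0.352% and 68.5% of counts in cKO replicates 1, 2 and 3 at day 9, against 15.8%, 34.6% and 17.8% in the WT replicates. At day 5 they held 14.3% in cKO replicate 2 and 0.51% or less in the other libraries. The list also held Lars2, a protein-coding gene, and Gm10800 and Gm10801, which are counted in these shares. Lmnb1, the targeted gene, was at 32.8 to 39.4 CPM in cKO and 156 to 210 CPM in WT at day 9, a log2 fold change of -2.38 (SE 0.14). At day 5 it was at 37.8 to 45.0 CPM in cKO and 247 to 288 CPM in WT.

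**Figure D1:**
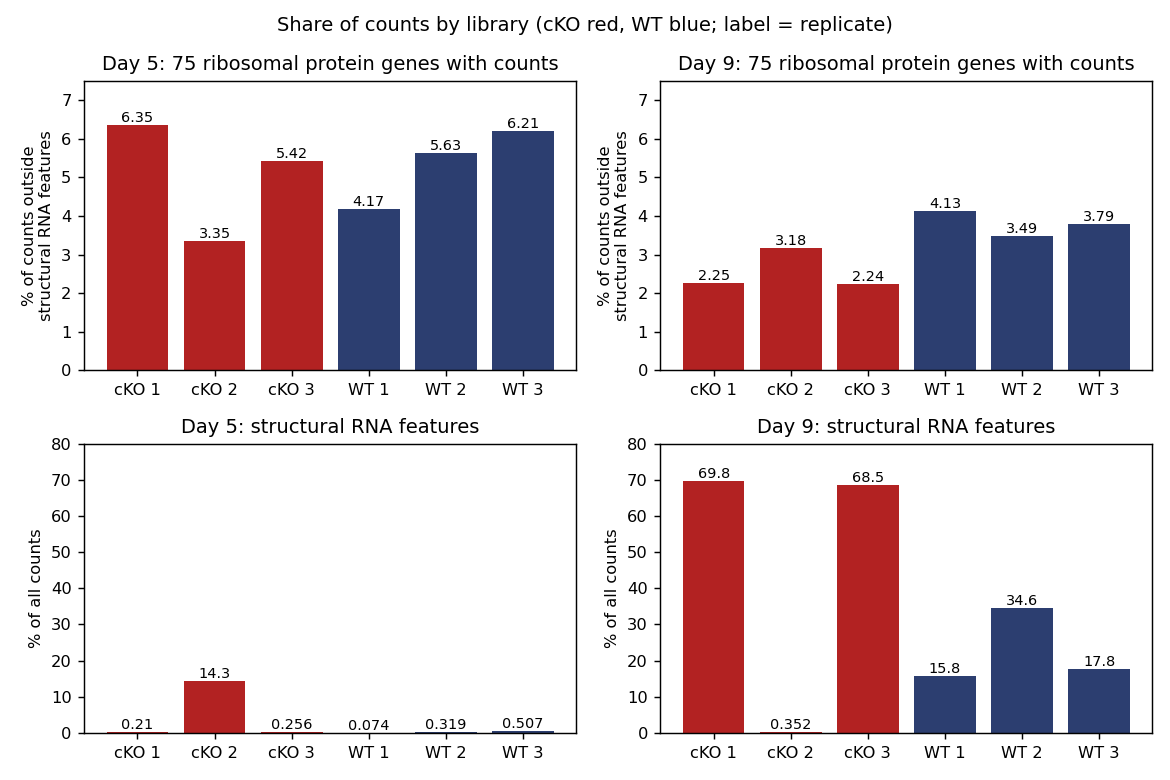
Percent of counts on the ribosomal protein genes, out of counts outside structural RNA (top), and percent of all counts on structural RNA features (bottom), with 1 bar per library and cKO (red) left of WT (blue). At day 9 the 3 cKO bars of the upper row, 2.24% to 3.18%, stand below the 3 WT bars, 3.49% to 4.13%, while in the lower row cKO replicates 1 and 3 are near 70% and cKO replicate 2 is at 0.352%.

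At day 9 ribosomal protein genes held a smaller part of the counts outside structural RNA in the 3 cKO libraries than in the 3 WT libraries, and most members moved together. Outside structural RNA the members held 2.25%, 3.18% and 2.24% of counts in the cKO libraries, against 4.13%, 3.49% and 3.79% in the WT libraries. The groups did not overlap. The means were 2.56% ± 0.538 in cKO and 3.80% ± 0.322 in WT (SD, n = 3 each; 2-sided exact permutation test, p = 0.1, the smallest that 3 against 3 allows). As a share of all counts, structural RNA included, the members held 0.679%, 3.17% and 0.708% in cKO against 3.48%, 2.28% and 3.12% in WT, so that the groups overlapped (exact permutation p = 0.3). They overlapped also as a share of TPM outside structural RNA, at 2.21%, 8.95% and 2.26% in cKO against 10.0%, 8.27% and 9.38% in WT (exact permutation p = 0.2). In both, cKO replicates 1 and 3 were low and cKO replicate 2 was within the WT range. Adding the near-identical copies to the counts outside structural RNA gave 3.59% ± 0.679 in cKO and 5.28% ± 0.411 in WT (exact permutation p = 0.1). The counts outside structural RNA still held 3 short features, Gm15662, Mir6240 and Mir6236. With these left out too, the members alone held 2.71% ± 0.408 in cKO and 3.81% ± 0.316 in WT (exact permutation p = 0.1).

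Gene by gene, 43 of the 75 members tested fell in cKO at day 9 and 2 rose (quasi-likelihood test of edgeR, p adjusted by Benjamini-Hochberg over 14617 features, threshold 0.05), where 22.6% of all features fell and 21.0% rose. The median log2 fold change of the members was -0.51, against 0.01 over all features. The 43 falls ran between -1.13 and -0.40. All 3 cKO libraries lay below all 3 WT libraries for 47 members and above them for 2, against 30.2% and 27.6% of all features. With the copies added to their parent genes, all 76 members could be tested, 57 fell and 0 rose, where 22.8% of features fell and 21.0% rose. All 43 members that fell as deposited also fell with copies added. In the pooled fit each of the 76 log2 fold changes was below 0, with a median of -0.48.

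The number of calls depended on which libraries entered. Without cKO replicate 2, 69 members fell and 0 rose, where 25.6% of all features fell and 24.4% rose, and the members' median was -0.67. Without cKO replicates 1 and 3 together, 3 fell and 1 rose, where 12.3% of all features fell and 9.07% rose, and the median was -0.27. The single cKO library left was there assumed to vary like the WT libraries. With copies added, 75 fell and 0 rose without cKO replicate 2 (25.7% and 24.4% of all features). By the same counts 2 fell and 0 rose without cKO replicates 1 and 3 (12.6% and 9.24% of all features). As deposited, 15 members fell without cKO replicate 1 (15.2% of all features) and 16 without cKO replicate 3 (16.4%). The count was 20 without WT replicate 1 (17.2% of all features) and 28 without WT replicate 2 (15.7%). With limma on the deposited log2(TPM + 1) values 0 members passed, where 3.36% of all features fell and 0.561% rose. By that test 2 of 75 members and 1846 of 14617 features had an unadjusted p under 0.05. The members' median was -1.61, against -0.79 over all features. In cKO replicates 1 and 3, 3 short features outside the structural list (Gm15662, Mir6240 and Mir6236) held 27.8% and 29.4% of TPM, against 0.21% in cKO replicate 2 and 2.52% to 5.45% in WT. What part of the falls goes with these library differences was not tested.

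**Figure D2:**
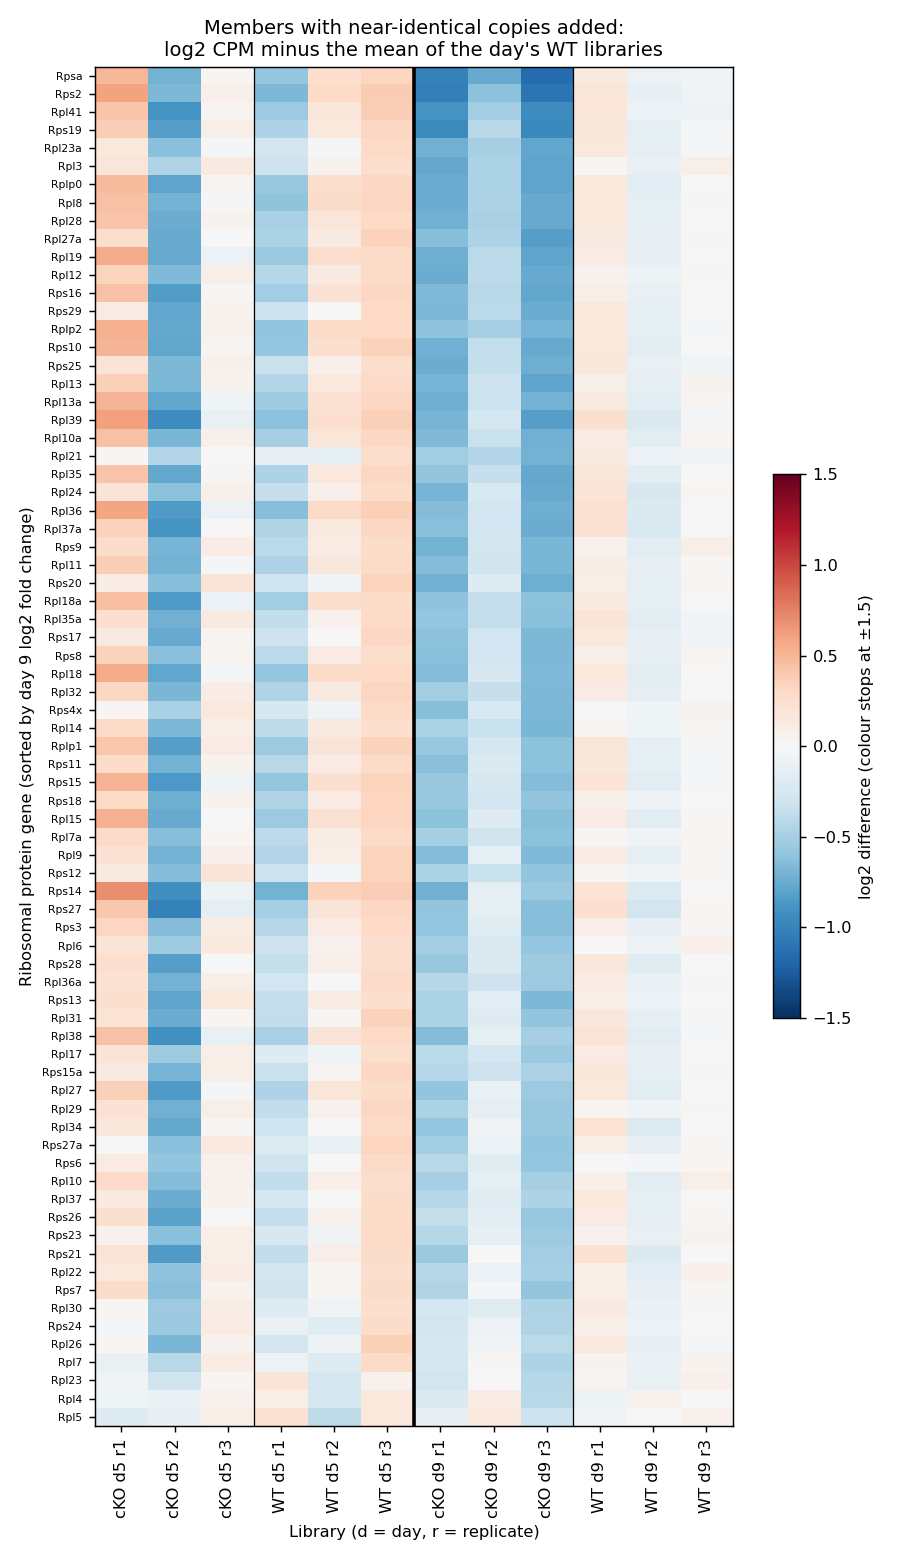
Log2 CPM of 75 of the 76 members, with near-identical copies added, minus the mean of the WT libraries of the same day, in 12 libraries (columns; cKO left of WT within each day) and sorted by day 9 log2 fold change. At day 9 cKO replicates 1 and 3 are lower than WT for nearly every gene and cKO replicate 2 less so, while at day 5 cKO replicate 2 and WT replicate 1 are the low columns.

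The 3 genes of the P stalk of the large subunit, which recruits elongation factors to the ribosome, all fell. Rplp0, the stalk's base, had 696, 837 and 676 CPM in the cKO libraries at day 9, against 1293.8, 1040.5 and 1165.5 CPM in the WT libraries. Its groups did not overlap (log2 fold change -0.66, SE 0.14, adjusted p = 0.00702, edgeR). Rplp1 and Rplp2, the acidic proteins that bind to it, fell by 0.47 and 0.60 on the log2 scale (adjusted p = 0.0287 and 0.00543, edgeR). Few of their counts lay on copies, and with copies added the changes were -0.67, -0.48 and -0.60. Rplp0 and Rplp1 were also among the 5 members with the highest TPM at both days.

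In the 60S subunit as a whole, the P stalk included, 25 of 46 members fell as deposited and 35 of 46 with copies added. Of all features 22.6% and 22.8% fell in the same fits. The members' medians were -0.52 and -0.51. Rpl41, the shortest ribosomal protein, had 226, 292 and 218 CPM in cKO against 474, 394 and 394 CPM in WT at day 9 (log2 fold change -0.77, SE 0.15, adjusted p = 0.00481, edgeR). It had no near-identical copy. Rpl23a, a protein at the exit of the peptide tunnel, had 411, 478 and 393 CPM in cKO against 754, 615 and 663 CPM in WT (log2 fold change -0.66, adjusted p = 0.0054, edgeR). Rpl3, which reaches toward the peptidyl transferase centre, had a log2 fold change of -0.66 and Rpl8, beside that centre, one of -0.65. Rpl19 and Rpl29 fell by 0.63 and 0.54. In all of these the highest cKO library was below the lowest WT library.

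Rpl5 and Rpl11 bind the 5S ribosomal RNA and, when free, the p53 regulator Mdm2. Rpl11 had 122, 133 and 123 CPM in cKO against 173, 172 and 182 CPM in WT at day 9 and fell by 0.48 (SE 0.09, adjusted p = 0.00567, edgeR). Its replicates were close to each other within both groups, and 59.3% of its family's counts lay on copies. Rpl5 as deposited went the other way, with 48.2, 49.0 and 31.8 CPM in cKO against 30.0, 29.5 and 29.5 CPM in WT (log2 fold change 0.54, SE 0.17, adjusted p = 0.0324, edgeR). With the counts of its copies added it had 444, 535 and 392 CPM in cKO against 466, 481 and 509 CPM in WT, a log2 fold change of -0.09 (SE 0.14, adjusted p = 0.62). The groups then overlapped. The rise stood in the counts assigned to the parent gene, and in the pooled counts no change passed the test.

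Rpl12, a protein of the stalk's base, was called in opposite directions with and without its copies. As deposited it had 16.2, 15.5 and 17.3 CPM in cKO against 13.7, 11.1 and 12.1 CPM in WT (log2 fold change 0.41, SE 0.13, adjusted p = 0.0376, edgeR). With copies added it had 206, 263 and 204 CPM in cKO against 360, 327 and 351 CPM in WT, and fell by 0.62 (SE 0.13, adjusted p = 0.00659). Rps12, listed at 0 by itself, had 287, 316 and 265 CPM on its copies in cKO against 407, 384 and 403 CPM in WT and fell by 0.46 in the pooled fit (SE 0.11, adjusted p = 0.0114). Both of the members that rose as deposited were thus among those with more than 90% of counts on copies.

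**Figure D3:**
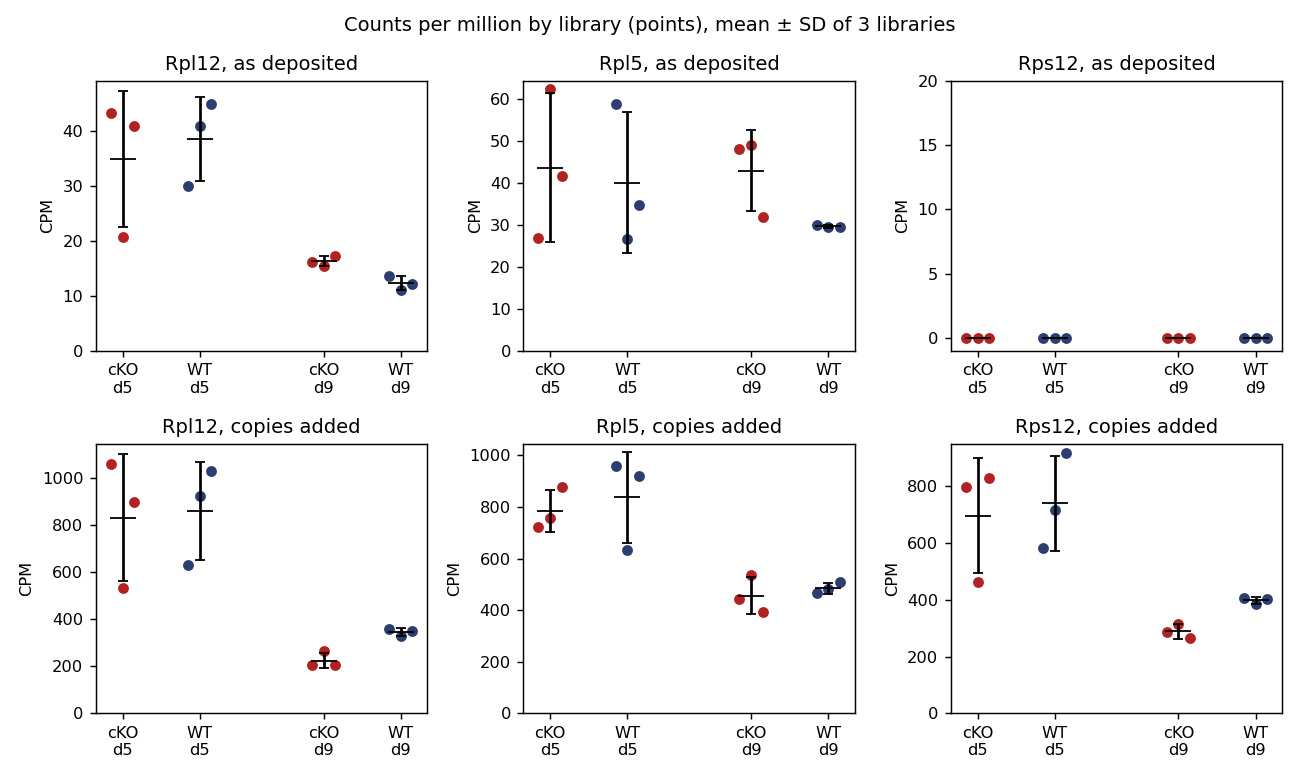
CPM of Rpl12, Rpl5 and Rps12 as deposited (top) and with near-identical copies added (bottom), with 1 point per library and the mean ± SD of 3 libraries (cKO red, WT blue; d5 and d9 are the days, whose tables were scaled apart). Rpl12 at day 9 is higher in cKO in the upper row, 15.5 to 17.3 CPM, and lower in cKO in the lower row, 204 to 263 CPM, while Rps12 has no value above 0 in the upper row.

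In the small subunit 18 of 29 members fell as deposited and 22 of 30 with copies added, where 22.6% and 22.8% of all features fell. The members' medians were -0.48 and -0.47. Rpsa, which is also known as the laminin receptor, had the largest change of all members, with 122, 195 and 112 CPM in cKO against 352, 282 and 307 CPM in WT (log2 fold change -1.13, SE 0.22, adjusted p = 0.00624, edgeR). With its copies added it had 557, 665 and 507 CPM in cKO against 1238.6, 1054.9 and 1089.4 CPM in WT, a change of -0.97 (SE 0.14, adjusted p = 0.00118). Rps2, a protein of the mRNA entry channel, had 535, 705 and 501 CPM in cKO against 1231.5, 985 and 1043.1 CPM in WT (log2 fold change -0.90, SE 0.16, adjusted p = 0.00373, edgeR). Rps19, whose human counterpart is mutated in Diamond-Blackfan anaemia, fell by 0.76 (adjusted p = 0.00986, edgeR), with 145, 211 and 144 CPM in cKO against 316, 253 and 277 CPM in WT. Rpsa and Rps2 were also the members that passed in the pooled fit with cKO replicate 2 as the only cKO library (log2 fold changes -0.80 and -0.66, adjusted p = 0.0176 and 0.0421, edgeR).

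Rps6, the target of S6 kinase downstream of mTORC1, did not pass as deposited, with 100, 148 and 104 CPM in cKO against 155, 138 and 158 CPM in WT (log2 fold change -0.35, adjusted p = 0.101, edgeR). With its copies added the groups separated and it fell by 0.38 (adjusted p = 0.0377). Rps27a, made as a fusion to ubiquitin, had 218, 230 and 189 CPM in cKO against 244, 223 and 250 CPM in WT and did not pass in either form (log2 fold changes -0.17 and -0.38, adjusted p = 0.251 and 0.0701). Rps24, among the 5 members with the highest TPM at day 9, had a log2 fold change of -0.26 (adjusted p = 0.121). Rps27 (-0.10), Rpl10 (-0.07), Rpl4 (-0.15) and Rpl27 (-0.17) had the smallest changes as deposited among members that did not pass. For Rps27, Rpl10 and Rpl27, most of whose counts lay on copies, the pooled values were -0.46, -0.37 and -0.40, and none of these passed (adjusted p = 0.071, 0.0592 and 0.0638). Rpl4, with 0.0% of counts on its copy, kept -0.15.

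The threshold ran through a dense part of the members. Just inside it was Rpl6 (log2 fold change -0.56, adjusted p = 0.0387, edgeR), and just outside were Rpl37 (-0.55, adjusted p = 0.0505) and Rpl24 (-0.56, adjusted p = 0.0525). The 4 members on the X chromosome had log2 fold changes of -0.50 for Rps4x, -0.07 for Rpl10, -0.74 for Rpl39 and -0.42 for Rpl36a. Rps4x and Rpl36a passed as deposited (adjusted p = 0.0251 and 0.0167, edgeR). Rpl39 spread widely among the cKO libraries, at 65.3, 146 and 70.9 CPM against 197, 126 and 150 CPM in WT (adjusted p = 0.144), and passed with copies added (-0.58, adjusted p = 0.0295).

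**Figure D4:**
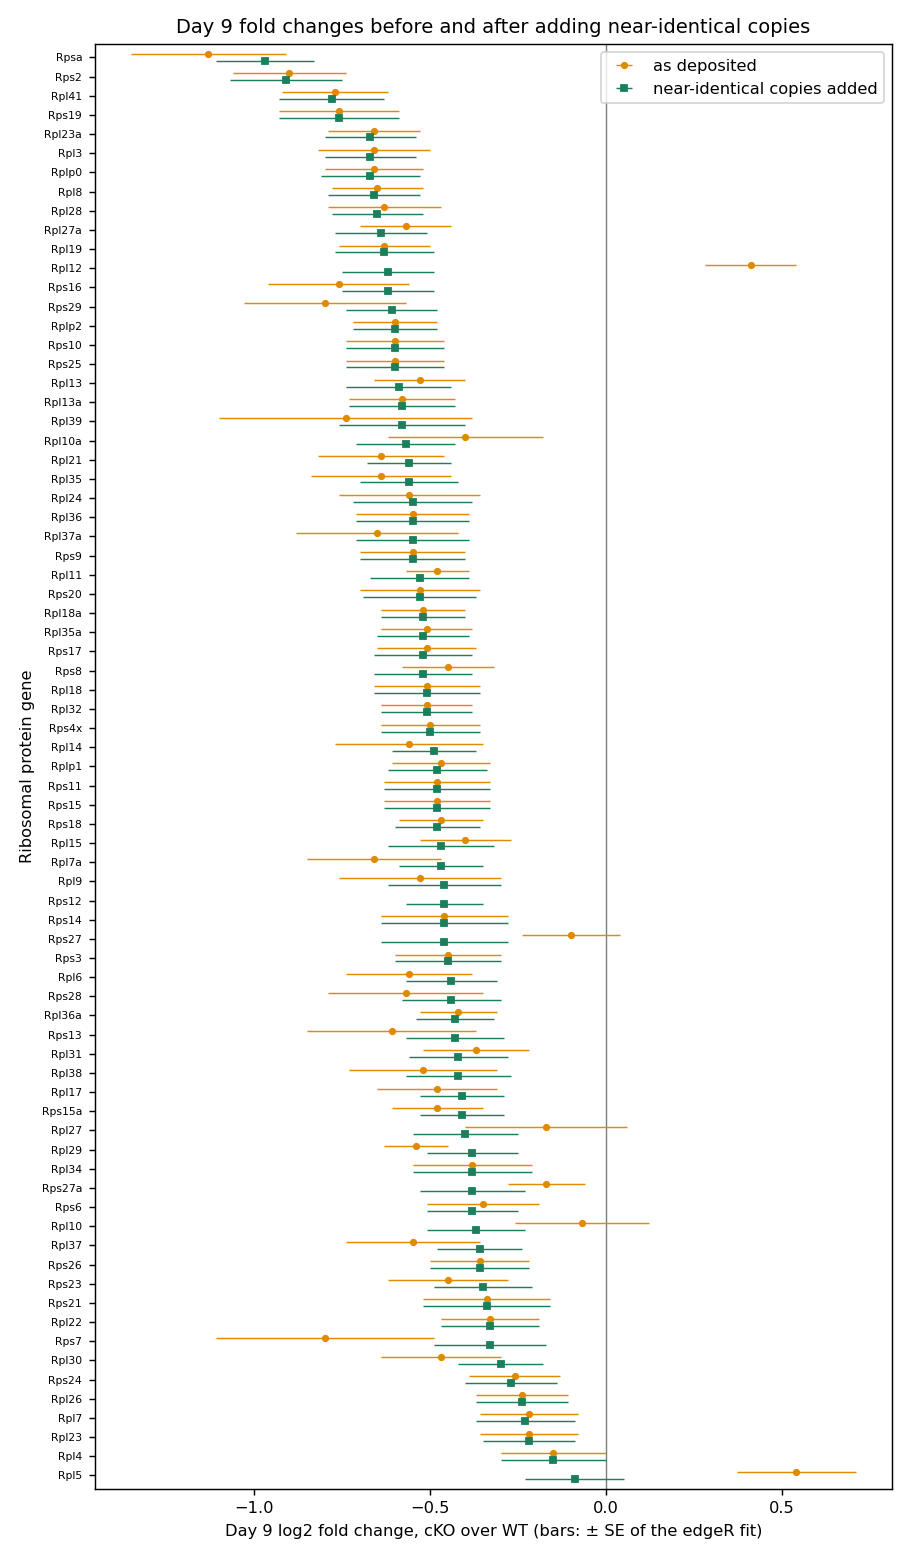
Day 9 log2 fold change, cKO over WT, of 75 of the 76 members as deposited (orange circles) and with near-identical copies added (green squares), with ± SE of the edgeR fit, sorted by the pooled value. Rpl12 and Rpl5 are the members right of 0 as deposited, at 0.41 and 0.54, and stand at -0.62 and -0.09 with copies added, where all plotted members lie left of 0.

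Members were not lowered to the same extent. With the total of the ribosomal protein genes and copies as the library size, 2 members were lower in cKO relative to that total, Rpsa (-0.46, SE 0.10, adjusted p = 0.00803, edgeR) and Rps2 (-0.40, SE 0.10, adjusted p = 0.0151). By the same scaling 3 were higher, Rpl5 (0.42, adjusted p = 0.0207), Rpl26 (0.28, adjusted p = 0.0494) and Rpl23 (0.28, adjusted p = 0.0495). On this scale 7.43% of all features fell and 44.4% rose. Rpl26, a protein near the peptide exit, had 243, 286 and 224 CPM in cKO against 328, 271 and 291 CPM in WT, so that its groups overlapped. Rpl26 and Rpl23 are named here after their values were seen. Without copies added, 5 members were higher relative to the total (Rpl5, Rpl12, Rpl10, Rps27 and Rps27a) and 2 lower (Rpsa and Rps2), where 43.7% of all features were higher and 6.88% lower. Across the 76 members, Spearman's rho of the pooled log2 fold change was -0.11 with coding length and -0.21 with the pooled WT level, given as a description since members share libraries.

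Ribosomal protein mRNAs are short, and at day 9 the change varied with transcript length over all features. The median log2 fold change of all features was 0.52 for a longest transcript of up to 500 bases, the shortest class and one that goes against the order of the rest. It was -0.35 for a longest transcript of 501 to 1000 bases, -0.28 for 1001 to 2000, -0.07 for 2001 to 4000, 0.15 for 4001 to 6000 and 0.49 above 6000. The 5 members of up to 500 bases had a median of -0.52 and 3 fell, where 13.2% of all features of that class fell. The 27 members of 501 to 1000 bases had a median of -0.51 and 14 fell (32.1% of all features of the class). The 30 members of 1001 to 2000 bases had -0.55 and 20 fell (32.8% of all features). The 11 members of 2001 to 4000 bases had -0.51, with 5 that fell and 2 that rose (25.7% and 16.4% of all features). The members' medians lay below those of all features in each of these classes. The classes used the longest annotated transcript of a gene, which can be longer than its main mRNA. For members, the transcripts taken for the coding sequence reached 3706 bases at most, yet 2 members stood in the class of 4001 to 6000. Members can thus stand in a longer class than their mRNA would give. Library by library, the members' median deviation from the WT mean was -0.63, -0.23 and -0.67 on the log2 scale in cKO and 0.15, -0.14 and 0.00 in WT. For features above 6000 bases the same median was 0.54, 0.36 and 0.51 in cKO and 0.01, 0.08 and -0.08 in WT. The part of transcript length in the members' changes was not tested.

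**Figure D5:**
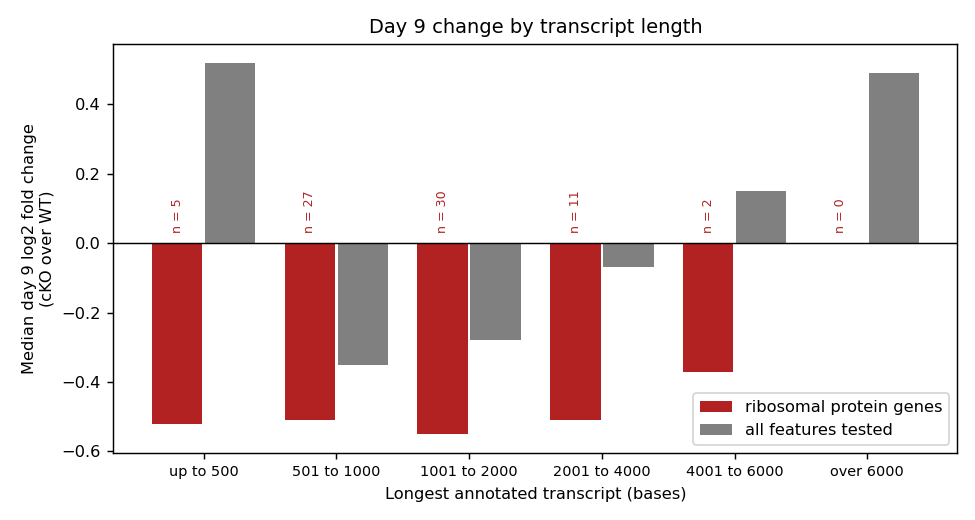
Median day 9 log2 fold change, cKO over WT, of the ribosomal protein genes as deposited (red, number of members above) and of all features tested (grey) by length of the longest annotated transcript. The members' medians lie between -0.55 and -0.37 in every class that holds members, while the medians of all features range between -0.35 and 0.52.

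Cell type markers also differed between the genotypes at day 9, in both directions. Of all features 22.6% fell and 21.0% rose. Of 8 neural progenitor markers 6 fell and 1 rose, and of 5 proliferation genes 4 fell, among them Ccnb1 (8.09 ± 1.14 CPM in cKO and 100 ± 17.8 CPM in WT, SD, n = 3 each). All 4 astrocyte markers rose, among them Gfap (334 ± 49.8 CPM in cKO and 16.1 ± 2.20 CPM in WT). Of 5 oligodendrocyte lineage genes 2 rose, among them Mbp, and 3 fell. Of 5 neuron markers 3 rose, Dcx (2.62), Tubb3 (1.13) and Rbfox3 (1.19). Summed TPM is a share of each library, of which 3 short features held 27.8% and 29.4% in cKO replicates 1 and 3. The TPM sums thus cannot be read apart from library make-up. The summed TPM of the neuron markers was 22.1 to 124 in cKO and 24.8 to 43.7 in WT. In CPM, Tubb3 was at 56.7, 58.4 and 60.1 in cKO against 29.2, 20.6 and 30.2 in WT, while Snap25 overlapped between the groups. The summed TPM of the proliferation genes was 8.80 to 60.4 in cKO and 314 to 326 in WT. That of the astrocyte markers was 135 to 1062.3 in cKO and 60.1 to 102 in WT. Microglia, endothelial, and fibroblast and mural markers summed to 1.77 TPM or less in every day 9 library, and the erythroid markers to 0.15 TPM or less. The part of these shifts in the ribosomal protein values was not tested.

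At day 5 no member passed. Of 75 members tested 0 fell and 0 rose, by edgeR and by DESeq2. By edgeR 0.00673% of all features fell (1 feature, Lmnb1) and 0% rose. An unadjusted p under 0.05 was found for 0 of the 75 members and for 89 of 14849 features (edgeR). The groups overlapped for all 75, where 1.35% of all features had every cKO library below every WT library and 1.5% every cKO library above. The median log2 fold change was -0.09. In simulated day 5 counts a log2 change of 0.5 was recovered for 0% of 100 changed genes. The members held 6.35%, 3.35% and 5.42% of counts outside structural RNA in the cKO libraries, against 4.17%, 5.63% and 6.21% in the WT libraries (2-sided exact permutation p = 0.7). The spread within each genotype was thus larger than the difference between them. The low libraries were the same for nearly all genes: cKO replicate 2 and WT replicate 1 were the 2 lowest for 70 members and the 2 highest for 1.

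That 1 member was Rpl5, with 27.0, 62.4 and 41.7 CPM in cKO against 58.9, 26.6 and 34.7 CPM in WT at day 5 (log2 fold change 0.13, SE 0.42). With copies added it had 721, 758 and 878 CPM in cKO against 957, 634 and 920 CPM in WT. Rplp0, by contrast, had 3673.4, 1532.8 and 2715.7 CPM in cKO against 1788.6, 3168.2 and 3276.8 CPM in WT (log2 fold change -0.06, SE 0.40). The smallest unadjusted p among the members was that of Rpl17, a 60S protein gene, with 206, 137 and 188 CPM in cKO against 170, 216 and 244 CPM in WT (log2 fold change -0.25, SE 0.25, unadjusted p = 0.344, adjusted p = 0.9999, edgeR). After it came Rpl21 (-0.18), Rps29 (-0.23) and Rpl26 (-0.19) among lower values, and Rpl27 (0.04) and Rps2 (0.02) were the other members above 0. The sign of the members' median depended on single libraries: it was 0.14 without cKO replicate 2, 0.06 without WT replicate 3 and -0.31 without cKO replicate 1.

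The low day 5 libraries also stood apart in other features. The members' median deviation from the WT mean was 0.27, -0.72 and 0.05 on the log2 scale in cKO and -0.37, 0.11 and 0.29 in WT. Features above 6000 bases had medians of -0.37, 0.77 and -0.01 in cKO and 0.45, -0.20 and -0.24 in WT, so the libraries low in ribosomal protein mRNAs were high in long transcripts. Malat1, a nuclear RNA, had 80.9, 2380.1 and 83.1 CPM of counts outside structural RNA in cKO and 175, 225 and 108 CPM in WT. At day 9 it had 6568.2, 755 and 5832.0 CPM in cKO and 1211.5, 683 and 443 CPM in WT. The part of these library differences in the members' values was not tested.

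The day 9 change was set against the day 5 change on all 12 libraries. No member of 75 passed by edgeR (0 rose and 0 fell, where 2.57% of all features rose and 5.14% fell) or by DESeq2. An unadjusted p under 0.05 was found for 1 member and for 2885 of 15323 features (edgeR). The members' median difference was -0.41. Rpsa had the smallest adjusted p, with a difference of -1.11 (SE 0.47, adjusted p = 0.233). Rpl3 (-0.62), Rps2 (-0.93), Rpl23a (-0.52), Rps7 (-0.74) and Rps19 (-0.68) followed. A fall that passed at day 9 and did not pass at day 5 is therefore not shown to differ between the days for any member. Without cKO replicate 2 of day 5, 1 member fell and 0 rose, where 7.92% of all features fell and 7.55% rose. Without that library and WT replicate 1 of day 5, 2 fell and 0 rose, where 9.33% of all features fell and 7.07% rose. In both runs the share of members that passed was below that of all features. The members' medians in these runs were -0.66 and -0.48, against 0.04 and -0.01 over all features. Since day and table coincide, levels were not compared between days.

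Other genes of the translation machinery at day 9 are given for context, beside 22.6% of all features that fell and 21.0% that rose. Of 9 paralogs and ribosomal proteins outside the rule, 4 fell, among them Rps27l (-1.08), Rpl36al (-0.40) and Rpl7l1 (-0.44), and all 9 log2 fold changes were below 0. Rps27rt, a gene of this list, is a near-identical copy of Rps27, and its counts were added to Rps27 in the pooled fit. Of 20 factors with TOP mRNAs, 13 fell, among them Eef2, the translocase (1883.9 ± 31.4 CPM in cKO and 2792.1 ± 300 CPM in WT, SD, n = 3 each; -0.57, adjusted p = 0.00841, edgeR), and 1 rose. That list holds Vim, which is also a progenitor marker. Mitochondrial ribosomal proteins, which serve a separate ribosome, had a median of -0.50, against -0.51 for the cytosolic members, and 49 of 76 fell and 1 rose.

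Ribosome biogenesis genes rose more often than they fell, beside 21.0% of all features that rose and 22.6% that fell. For the dedicated chaperones, the regulators and the snoRNA host genes the part that rose was near that of all features. Of 38 ribosome biogenesis genes 16 rose and 5 fell at day 9, with a median of 0.25. Among those that rose were the nucleolar GTPases Gnl2 (1.03) and Gnl3 (1.18) and Dkc1 (1.49), the pseudouridine synthase of ribosomal RNA. Of 11 dedicated chaperones 3 rose, Rpf2 (0.83) and Rrs1 (0.62), which load the 5S particle, and Ltv1 (0.47), while Aamp fell by 0.40. Of 19 regulators 4 rose and 2 fell. Rps6kb1, the S6 kinase, was at 21.4 ± 3.13 CPM in cKO and 7.08 ± 2.71 CPM in WT (1.59, adjusted p = 0.00504, edgeR), and Eif4ebp1, a translation repressor under mTORC1, at 3.13 ± 1.06 CPM in cKO and 8.08 ± 1.61 CPM in WT (-1.36, adjusted p = 0.00629). Of 5 snoRNA host genes Gas5 rose by 0.38. Of 36 ribosomal protein pseudogenes tested, 14 fell and 2 rose, and many of these carry the counts that were added to the members above. At day 5 0 genes of these lists passed.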

How the data were processed

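Polyadenylated RNA of 12 libraries in 4 groups of 3 was measured. The authors deposited estimated counts per gene, made with RSEM and Bowtie2 on mm10 per the submitters' processing notes, and TPM from the same runs, in a table per day. Annotation and strandedness: not given in the sources used here. Deposited estimated counts were rounded. Day 5 identifiers were matched to symbols (97.96%). Tests used edgeR 4.0.16 in R 4.3.3 (filterByExpr, TMM, robust quasi-likelihood, Benjamini-Hochberg, threshold 0.05), per day on 6 libraries, and on 12 for the day difference. Standard errors are the fold change over the square root of F. DESeq2 1.42.0 and limma 3.58.1 were alternatives, limma on deposited TPM with pseudocounts of 1 and 0.1. Copies were found with BLAST+ 2.17.0 in GENCODE M21 and added to members in a fit chosen after seeing the data, as was leaving out 3 short features. Tests were tried on simulated data. A log2 change of 0.5 was recovered for 0% of changed genes at day 5 and 5.26% at day 9. A log2 change of 2 was recovered for 43% and 80.4%. Members and lists were chosen with earlier results of these data known. Named genes were Lmnb1, the 5 highest by TPM, the smallest and borderline adjusted p, the smallest changes and fixed role groups; other lists give up to 4 genes by adjusted p. Some items are not reported here.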

Additional observations from a re-analysis of the deposited data

How the results depend on the processing

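Counting error limits the day 9 cKO libraries most, since replicates 1 and 3 had 90422 and 97057 counts on the members, against 562142 or more in each WT library. At day 5, 0 members passed under each alternative run, by edgeR, DESeq2 and limma. In these runs 0.0814% or less of all features rose and 0.0475% or less fell. The day 5 median (-0.09) was 0.02 with structural RNA share as a covariate and -0.31 to 0.14 with 1 library left out.

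At day 9 the count of members that fell (43) was 58 by DESeq2 (21.8% of all features fell), 48 with upper quartile scaling (22.8%), 42 by limma-voom (21.8%), 42 with structural RNA features left out (21.5%), 49 with no low-count filter (13.1%), 57 with copies pooled (22.8%) and 68 with structural RNA share as a covariate (26.9%). Leaving out 1 library gave 15 to 69 falls and 0 to 1 rises, and medians of -0.67 to -0.44. In these runs 15.2% to 25.6% of all features fell and 11.6% to 24.4% rose. With cKO replicates 1 and 3 left out together, 3 fell and 1 rose (median -0.27). With copies pooled, 75 fell and 0 rose without cKO replicate 2, and 2 fell and 0 rose (median -0.31) without cKO replicates 1 and 3. The 2 rises became 1 by DESeq2 and 0 with no low-count filter or copies pooled. The numbers did not pair the samples at day 9 (correlations of same-numbered deviations were -0.001, -0.20 and -0.063). At day 5 these correlations were -0.721, -0.498 and 0.534, of mixed sign. With the replicate block 31 members fell and 1 rose at day 9 (18.9% and 18.8% of all features).

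With limma on log2(TPM + 1), log2(TPM + 0.1), TPM rescaled outside structural RNA, and log2(TPM + 1) with no filter, 0 members fell and 0 rose in each. Of all features 3.36%, 4.19%, 9.15% and 0% fell in these runs, and 0.561%, 0.506%, 2.23% and 0% rose. The members' medians were -1.61, -1.61, -1.38 and -1.61, against -0.79, -1.02, -0.67 and -0.15 over all features. The summed share differed by -4.75 percentage points of TPM, against -1.24 of counts. By these 4 settings Rpl12 was at -0.54, -0.58, -0.34 and -0.54 and Rpl5 at -0.45, -0.48, -0.24 and -0.45. Pooled, Rpl12 was at -0.62 and Rpl5 at -0.09. Without cKO replicate 2 they were at -0.77 and -0.23 pooled, and Rpl12 at -0.43 pooled without cKO replicates 1 and 3. The cause of these differences was not tested.

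Relative to the ribosomal protein total, 2 fell and 5 rose, where 6.88% and 43.7% of all features did. The median was 0.02, against 0.54 over all features. With copies pooled 2 fell and 3 rose, where 7.43% and 44.4% of all features did. The median was then 0.03, against 0.52 over all features. This scaling sets the members' total level by construction. By it Rplp1 was at 0.06 and 0.04 (as deposited and pooled), Rps24 at 0.27 and 0.25, Rpl29 at 0.01 and 0.12, Rpl10 at 0.45 and 0.14, Rps27 at 0.44 and 0.05, Rpl4 at 0.36 and 0.34, Rpl27 at 0.33 and 0.11, Rps6 at 0.16 and 0.12, Rps27a at 0.36 and 0.12, and Rpl36a at 0.11 and 0.09. As deposited Rpl11 was at 0.06 and Rps4x at 0.02. Pooled, Rpl12 was at -0.12, Rpl6 at 0.07 and Rpl37 at 0.16. Without cKO replicates 1 and 3, Rpl10 was at 0.18, Rpl27 at 0.21 and Rpl4 at 0.09 (0.08 pooled). Leaving out 1 library gave -0.27 to 0.08 for Rpl10 and -0.48 to 0.02 for Rpl27.

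For the day difference, 1 member fell with structural RNA share as a covariate (5.21% of all features). Without cKO replicate 2 and WT replicate 1 of day 5, 2 fell (9.33%). With 1 library left out 0 to 1 fell (3.28% to 7.92%). Relative to the ribosomal protein total 1 rose, where 3.68% of all features did (median 0.04, against 0.39 over all features). The members' median was -1.35, -1.36, -0.88 and -1.35 by the 4 TPM settings and -0.03 without cKO replicates 1 and 3 of day 9. Over all features the medians were -0.63, -0.88, -0.35 and -0.10, and 0.05 without these 2 libraries.

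At day 5 the replicate block put Rpl27 at -0.02 and Rps2 at -0.01. Rpl5 was at -0.09 with the covariate and at -0.09 pooled, Rpl27 at -0.13 pooled, and Rps2 at -0.03 with no low-count filter. By the 4 TPM settings Rpl27 was at -0.15, -0.15, -0.06 and -0.15 and Rps2 at -0.11, -0.11, -0.02 and -0.11. Leaving out 1 library gave -0.41 to 0.01 for Rps29, -0.32 to 0.02 for Rpl26, -0.24 to 0.51 for Rpl5, -0.27 to 0.30 for Rpl27 and -0.30 to 0.29 for Rps2.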
